A study of Mus musculus with 32 samples.

Results

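Detoxifying and antioxidant enzymes were followed in YUMM3.3 cells, a Braf-mutant mouse melanoma cell line, as 9 of the 12451 genes in the table, all 9 of which were found by the symbol of their Ensembl identifier. Adh7, Akr1c18 and Aldh3a1, the falling enzymes, were chosen by the measured values reported here, namely a lower mRNA level in treated than in untreated wells, so that their treatment effects are given as values with standard errors and without a test. Nqo1, Hmox1, Gclc, Gclm, Txnrd1 and Srxn1, 6 well-known targets of the transcription factor Nrf2, were added to ask whether that programme moved with them, and they were tested. mRNA was measured by BRB-seq, a barcoded 3′ RNA-seq of pooled libraries, in 32 samples: 4 wells each of untreated cells, cells given 40 ng/ml Activin-A (the dose of the labels and the methods, where captions of the study name another), cells given 20 ng/ml IFN-γ, and cells given both, at 4 hrs and at 12 hrs. All wells held this single cell line without further genetic change, and p-values therefore measure the spread between wells.

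Adh7 encodes an alcohol dehydrogenase that oxidizes retinol and ethanol, Akr1c18 an aldo-keto reductase that inactivates progesterone, and Aldh3a1 an aldehyde dehydrogenase that oxidizes aromatic and medium-chain aldehydes. Nrf2, the product of Nfe2l2, is held in the cytoplasm and sent for degradation by Keap1, and electrophiles or oxidants release it to bind antioxidant response elements (AREs) together with small Maf proteins such as Mafk, in competition with Bach1. Among its targets, Gclc and Gclm encode the catalytic and the modifier subunit of glutamate-cysteine ligase, which makes the first step of glutathione synthesis. Txnrd1 is the cytosolic thioredoxin reductase, Srxn1 repairs overoxidized peroxiredoxins, Nqo1 reduces quinones, and Hmox1 degrades haem. Activin-A is a TGF-β family ligand that signals through Smad2 and Smad3, and IFN-γ is a cytokine of T cells and NK cells.

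Totals ranged from 654539 to 1455074 counts per sample, and a gene was taken as detected above 3 counts, or 2.06 to 4.58 counts per 1e+06 of the raw total. Levels are given in CPM, counts per 1e+06 after TMM normalization. All 7 melanocyte markers had counts in all 32 samples, and 6 of them lay above 3 counts throughout, with Pmel at 102 to 142 CPM, whereas Mitf went down to 2 counts (2.52 to 13.7 CPM). Of the markers of other cells, 0 of 3 endothelial, 1 of 3 keratinocyte, 3 of 5 haematopoietic and 3 of 4 fibroblast markers were in the table, the haematopoietic ones at 0 to 13 counts. Of the fibroblast markers, Col1a1 ranged from 23.1 to 63.9 CPM and Pdgfra from 5.58 to 22.7 CPM. Dcn had 0 to 8 counts and was above 0 in 15 of the 32 samples. The Activin-A target Ccn2 averaged 78.4 CPM in untreated and 266 CPM in Activin-A-treated cells at 4 hrs, so that the Activin-A label matched this gene. Replicate 1 of Activin-A at 4 hrs stood apart from its group: its pairs with the other 3 wells differed by a chi-square of at least 2.45 per gene, against at most 1.54 in all other pairs of wells of a group. Values for Activin-A at 4 hrs that moved by over 1.5 times without this well are also given without it. In bulk RNA, fewer expressing cells and less RNA per cell cannot be told apart.

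The 250 bases before the start site are shown for 6 of the 9 genes, to set the promoters of falling enzymes beside those of Nrf2-type genes that rose, fell or did not move. RefSeq's table for GRCm38.p6 held a window for these 6, with 3 alternative starts for Txnrd1, of which the second is shown. Capitals mark the ARE core, TGANNNNGC, and the AP-1 site, TGANTCA, on either strand, and each sequence runs 5′ to 3′ on the gene's own strand.
Adh7, chr3:138217523-138217772, plus strand: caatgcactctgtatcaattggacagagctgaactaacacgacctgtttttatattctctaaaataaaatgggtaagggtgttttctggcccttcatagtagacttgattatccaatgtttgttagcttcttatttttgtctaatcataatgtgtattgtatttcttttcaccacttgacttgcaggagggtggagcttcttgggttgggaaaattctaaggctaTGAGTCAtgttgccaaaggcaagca
Akr1c18, chr13:4150647-4150896, minus strand: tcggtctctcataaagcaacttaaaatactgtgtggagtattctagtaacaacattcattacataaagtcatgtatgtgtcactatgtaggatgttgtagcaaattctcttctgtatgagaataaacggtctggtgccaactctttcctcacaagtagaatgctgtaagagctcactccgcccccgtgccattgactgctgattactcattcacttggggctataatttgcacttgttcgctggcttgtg
Nqo1, chr8:107403206-107403455, minus strand: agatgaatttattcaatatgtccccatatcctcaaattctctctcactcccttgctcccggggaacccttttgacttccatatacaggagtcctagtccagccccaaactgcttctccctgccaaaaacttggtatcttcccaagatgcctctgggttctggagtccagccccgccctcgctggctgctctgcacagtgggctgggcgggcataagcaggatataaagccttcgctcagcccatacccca
Gclm, chr3:122245307-122245556, plus strand: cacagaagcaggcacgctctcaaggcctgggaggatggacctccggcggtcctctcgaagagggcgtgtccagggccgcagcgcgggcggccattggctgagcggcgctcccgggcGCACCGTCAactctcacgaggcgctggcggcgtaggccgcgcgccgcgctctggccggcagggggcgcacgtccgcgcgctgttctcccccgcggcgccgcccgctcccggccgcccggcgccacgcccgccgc
Txnrd1, chr10:82858956-82859205, plus strand: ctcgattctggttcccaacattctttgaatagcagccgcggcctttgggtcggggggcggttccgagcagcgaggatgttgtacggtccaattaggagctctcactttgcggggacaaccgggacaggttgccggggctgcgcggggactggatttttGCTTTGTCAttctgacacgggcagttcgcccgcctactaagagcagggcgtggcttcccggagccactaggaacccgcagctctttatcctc
Srxn1, chr2:152105274-152105523, plus strand: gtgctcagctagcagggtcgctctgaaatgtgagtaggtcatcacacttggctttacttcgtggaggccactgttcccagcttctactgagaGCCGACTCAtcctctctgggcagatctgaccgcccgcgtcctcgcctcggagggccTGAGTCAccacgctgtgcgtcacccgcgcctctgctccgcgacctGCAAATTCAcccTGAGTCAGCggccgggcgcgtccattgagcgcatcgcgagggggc

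Neither falling enzyme shown had an ARE core in its window. Gclm had 1, at 134 to 126 bases before the start, Srxn1 had 3, of which 1 overlapped an AP-1 site, and Txnrd1 had 1 in the window shown, 0 in the first and 1 in the last of its 3 windows. Nqo1 had 0 in this window. Adh7 carried an AP-1 site at 25 to 19 bases before its start. An ARE core was found in 35.2% and an AP-1 site in 6.75% of all 32851 windows of the same length, so that a match is a description of the letters and not of a bound site.

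Adh7 (ENSMUSG00000055301) was lower under each factor and lowest under both. At 4 hrs the 4 untreated wells held 219.8, 256, 224 and 192 CPM, the Activin-A wells 153, 164, 183 and 167 CPM, the IFN-γ wells 174, 231, 168 and 163 CPM, and the wells with both factors 131, 126, 129.5 and 112 CPM. All wells with Activin-A, alone or in co-treatment, lay below all untreated wells, whereas IFN-γ wells overlapped them through replicate 2. The corresponding log2 fold changes (log2FC) against untreated cells were -0.42 (SE 0.097) with Activin-A, -0.26 (SE 0.097) with IFN-γ and -0.84 (SE 0.10) with both. Without replicate 2 the value for IFN-γ was -0.40.

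At 12 hrs untreated wells held 214, 205, 232 and 222 CPM of Adh7. The Activin-A wells held 119, 125, 145 and 119 CPM, the IFN-γ wells 152, 134, 119.9 and 136 CPM, and the co-treated wells 85.8, 103, 104 and 92.1 CPM. No treated well reached an untreated one, and all 4 co-treated wells lay below all 8 wells given a single factor. The log2FC were -0.78 (SE 0.089), -0.69 (SE 0.088) and -1.18 (SE 0.097), the last a level of 0.442 times that of untreated cells. Untreated cells at 4 hrs (223 ± 26.3 CPM, SD, n = 4) and 12 hrs (218 ± 11.5 CPM) did not differ beyond their spread. Against IFN-γ alone, co-treatment gave a log2FC of -0.58 (SE 0.10) at 4 hrs and -0.49 (SE 0.11) at 12 hrs.

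Akr1c18 (ENSMUSG00000021214) was also lower with each factor, but the mean of co-treated wells was not below that of Activin-A wells. At 4 hrs untreated wells held 168, 179.9, 159 and 147 CPM, Activin-A wells 102, 127, 118 and 112 CPM, IFN-γ wells 126, 139, 154 and 114 CPM, and co-treated wells 129, 117, 101 and 124 CPM. Activin-A and co-treated wells lay below all untreated wells, and 1 of the 4 IFN-γ wells reached into their range. The log2FC were -0.53 (SE 0.10), -0.30 (SE 0.10) and -0.47 (SE 0.10) in the same order of treatments.

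At 12 hrs Akr1c18 stood at 137, 143, 132 and 154 CPM in untreated wells and at 78.7, 80.3, 90.0 and 80.5 CPM with Activin-A. IFN-γ wells held 104, 95.1, 106 and 98.1 CPM, and co-treated wells 68.9, 95.8, 97.4 and 95.6 CPM. All 12 treated wells were below the 4 untreated ones, and the wells with both factors overlapped those with either factor. The log2FC were -0.78 (SE 0.11), -0.49 (SE 0.10) and -0.66 (SE 0.11). The effect of Activin-A was thus -0.78 without and -0.17 (SE 0.12) with IFN-γ, a difference of 0.61 (SE 0.16) in Akr1c18 where Adh7 had 0.30 (SE 0.14). Without co-treated replicate 1, the well at 68.9 CPM, the effect of Activin-A on Akr1c18 with IFN-γ was -0.063 instead of -0.17. For Aldh3a1 at 12 hrs the effect of Activin-A with IFN-γ less that without it was 0.86 (SE 0.48). At 4 hrs that difference was 0.37 (SE 0.15) for Akr1c18, -0.16 (SE 0.14) for Adh7 and -0.31 (SE 0.33) for Aldh3a1.

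Aldh3a1 (ENSMUSG00000019102) was the least abundant of the falling enzymes in reads, with 5 to 32 counts per well. At 4 hrs untreated wells held 28.1, 23.1, 19.8 and 25.0 CPM, and the wells of Activin-A (17.8 to 23.0 CPM), of IFN-γ (18.9 to 27.9 CPM) and of both factors (10.5 to 19.8 CPM) all overlapped them. At 12 hrs untreated wells held 17.0, 20.6, 27.5 and 22.2 CPM, Activin-A wells 13.7, 8.71, 10.3 and 18.6 CPM, IFN-γ wells 10.9, 8.36, 5.40 and 6.65 CPM, and co-treated wells 7.91, 6.76, 12.2 and 5.83 CPM. With IFN-γ, alone or with Activin-A, every well was below every untreated well, whereas 1 Activin-A well overlapped them.

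The log2FC of Aldh3a1 were -0.19 (SE 0.22), -0.14 (SE 0.22) and -0.64 (SE 0.23) at 4 hrs for Activin-A, IFN-γ and both, and -0.76 (SE 0.27), -1.47 (SE 0.30) and -1.37 (SE 0.31) at 12 hrs. At 4 hrs the value for Activin-A was -0.083 without its replicate 1 and -0.095 without untreated replicate 1. That for IFN-γ was -0.32 without its replicate 2, -0.066 without its replicate 4, and -0.053 and -0.22 without untreated replicates 1 and 3 respectively, and with all wells both values were smaller than their standard errors. Co-treatment differed from IFN-γ alone by 0.09 (SE 0.39) at 12 hrs, less than its error and with a sign that changed without IFN-γ replicate 3 or co-treated replicate 3 (-0.16 to 0.26 over the 8 fits that left out a well). The order of treatments therefore differed between the 3 enzymes at 12 hrs: the lowest mean was that of co-treatment for Adh7 (96.1 CPM), of Activin-A for Akr1c18 (82.4 CPM) and of IFN-γ for Aldh3a1 (7.83 CPM), with neighbouring groups overlapping for the latter pair. Comparisons with untreated cells share the same 4 wells per time point. Over all genes tested, 1.64%, 5.06% and 7.29% passed an adjusted p of 0.05 at 4 hrs for Activin-A, IFN-γ and co-treatment, and 2.41%, 9.25% and 9.84% at 12 hrs.

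**Figure D1:**
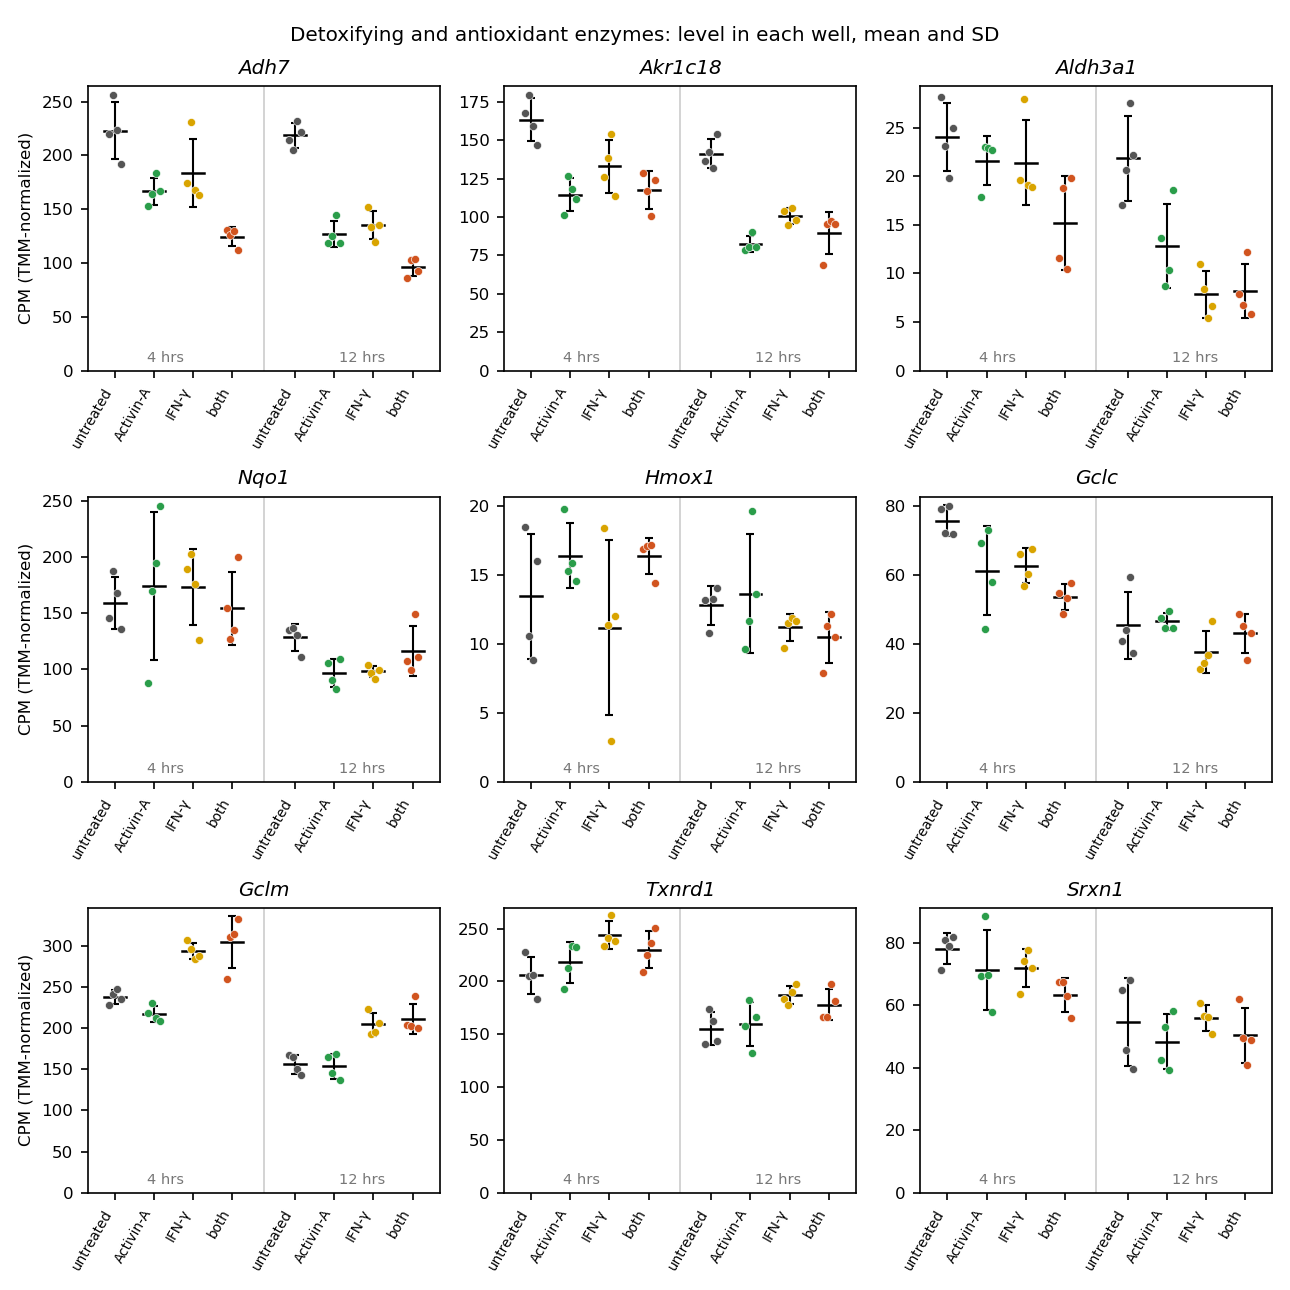
Level of the 9 genes in TMM-normalized CPM (y axis, from 0) in each well (points) of the 8 groups (x axis), with the mean (horizontal bar) and SD (error bar, n = 4). The upper row holds the falling enzymes, with Adh7 at 96.1 CPM under both factors against 218 CPM in untreated cells at 12 hrs, and the lower left panel shows Gclm above untreated wells wherever IFN-γ was given.

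The effects of treatment at the 2 times were also set against each other. The difference between the effects at 12 and 4 hrs was -0.36 (SE 0.13) for Adh7 with Activin-A, -0.43 (SE 0.13) with IFN-γ and -0.33 (SE 0.14) with both. For Aldh3a1 it was -0.57 (SE 0.34), -1.31 (SE 0.37) and -0.72 (SE 0.39) in the same order, and for Akr1c18 it was -0.24 (SE 0.15), -0.17 (SE 0.14) and -0.18 (SE 0.15). These values were not tested, because the 3 enzymes were chosen by their treatment effects in the same wells. In untreated cells the change from 4 to 12 hrs was -0.03 (SE 0.088) for Adh7, -0.21 (SE 0.095) for Akr1c18 and -0.17 (SE 0.22) for Aldh3a1.

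Over the 8 group means of log2 CPM, Adh7 correlated with Akr1c18 at a Pearson r of 0.88 and with Aldh3a1 at 0.86, and Akr1c18 with Aldh3a1 at 0.80, as descriptions of 8 points that share wells and depth between genes. These enzymes were chosen because all of them fell with treatment, so that a high r between them follows in part from the choice. Among the genes most like Adh7 of 8619 candidates were Nefl (r = 0.99), the neurofilament light chain, and Gad2 (r = 0.96), a glutamate decarboxylase. Nefl went from 698 ± 27.3 CPM in untreated cells at 4 hrs to 204 ± 7.42 CPM with both factors at 12 hrs, in the same order of extremes as Adh7.

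For Akr1c18 the nearest genes were Hcfc1 (r = 0.98), Itm2a (r = 0.98) and D8Ertd738e (r = 0.97), of which Hcfc1 varied only from 76.6 to 82.9 CPM and Itm2a from 27.3 to 46.1 CPM, since r takes no account of the size of a change. Those of Aldh3a1 were Nt5dc2 (r = 0.97), Mecr (r = 0.96), a reductase of mitochondrial fatty acid synthesis, and Esm1 (r = 0.96), whose means lay between 384 and 563 CPM. Of the 6 Nrf2-type genes, none was among these nearest genes. Their r ranged from -0.02 for Gclm to 0.60 for Srxn1 with Adh7, from 0.094 for Hmox1 to 0.76 for Srxn1 with Akr1c18, and from 0.18 for Gclm to 0.80 for Gclc with Aldh3a1, the last as high as the 0.80 between Akr1c18 and Aldh3a1.

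At most 1 of the 6 Nrf2-type genes was called lower in any comparison of a treatment with untreated cells. With Activin-A at 4 hrs 0 of 6 passed edgeR's test, with 0 at an unadjusted p under 0.05 and 0 by DESeq2, against 1.64% of all genes. With IFN-γ at 4 hrs 1 of 6 was higher and 0 lower, against 4.29% and 0.766% of all genes. With both factors at 4 hrs 1 was higher and 1 lower, against 5.08% and 2.21%.

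At 12 hrs 1 of 6 was lower and 0 higher with Activin-A (1.16% and 1.25% of all genes), 2 were higher and 1 lower with IFN-γ (6.43% and 2.82%), and 1 was higher and 0 lower with both factors (6.14% and 3.7%). Across the 6 genes the log2FC with both factors at 12 hrs lay between -0.28 and 0.43 with a median of -0.10, where the 3 falling enzymes lay between -1.37 and -0.66 and the median of all genes was -0.01. With Activin-A alone the 6 genes lay between -0.42 and 0.07 and with IFN-γ alone between -0.40 and 0.37.

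Gclm (ENSMUSG00000028124), the modifier subunit of glutamate-cysteine ligase, rose wherever IFN-γ was present. At 4 hrs untreated wells held 229, 242, 248 and 236 CPM and Activin-A wells 219, 231, 213 and 209 CPM, whereas IFN-γ wells held 307, 297, 285 and 289 CPM and co-treated wells 260.4, 312, 315 and 334 CPM. All 8 wells with IFN-γ were above all 8 wells without it. The log2FC was 0.32 (SE 0.080, edgeR adjusted p = 0.00568) with IFN-γ and 0.37 (SE 0.078, adjusted p = 5.13e-04) with both, and -0.13 (SE 0.082, adjusted p = 0.585) with Activin-A.

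At 12 hrs Gclm was lower in all groups but kept the same order. Untreated wells held 167, 165, 151 and 143 CPM, Activin-A wells 165, 145, 169 and 138 CPM, IFN-γ wells 223, 193, 196 and 207 CPM, and co-treated wells 204, 203, 239 and 200.4 CPM. Again all wells with IFN-γ were above all wells without it. The log2FC was 0.37 (SE 0.086, adjusted p = 7.72e-04) with IFN-γ and 0.43 (SE 0.087, adjusted p = 1.08e-04) with both. These 4 calls held when any single well was left out and with DESeq2. Adding Activin-A to IFN-γ changed Gclm by 0.05 at each time (SE 0.077 at 4 hrs and 0.084 at 12 hrs), with 95% intervals from -0.10 to 0.20 and from -0.11 to 0.22.

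Gclc (ENSMUSG00000032350), the catalytic subunit of the same enzyme, did not rise with Gclm. At 4 hrs its untreated wells held 79.1, 72.2, 80.1 and 71.9 CPM, IFN-γ wells 66.1, 56.7, 60.3 and 67.7 CPM, and co-treated wells 54.8, 48.7, 53.3 and 57.7 CPM. Both treated groups lay below all untreated wells, and Activin-A wells, at 69.3, 44.4, 73.1 and 58.0 CPM, overlapped them. Only co-treatment passed the test, with a log2FC of -0.49 (SE 0.13, adjusted p = 0.00954), a call that was lost without replicate 2 of co-treatment (adjusted p = 0.0517) and with DESeq2 (adjusted p = 0.0578). IFN-γ alone gave -0.26 (SE 0.13, adjusted p = 0.384).

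At 12 hrs Gclc stood at 37.4 to 59.4 CPM in untreated wells and at 32.7 to 46.6 CPM with IFN-γ, and the 4 groups overlapped. The log2FC were 0.04 (SE 0.16), -0.24 (SE 0.17) and -0.07 (SE 0.17) with Activin-A, IFN-γ and both, and none passed the test. The mRNAs of the enzyme's subunits thus moved in opposite directions with both factors at 4 hrs, which is a comparison of 2 separately tested values.

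Txnrd1 (ENSMUSG00000020250) was called higher with IFN-γ at 12 hrs only. At 4 hrs untreated wells held 228, 205, 206 and 184 CPM and IFN-γ wells 234, 242, 263 and 238 CPM, without overlap, with a log2FC of 0.25 (SE 0.086) and an adjusted p of 0.0920, or 0.0469 without untreated replicate 1. At 12 hrs untreated wells held 141, 174, 163 and 144 CPM and IFN-γ wells 183, 178, 190.1 and 198 CPM, also without overlap, with a log2FC of 0.27 (SE 0.090, adjusted p = 0.0366). That call was lost in 4 of 8 fits that left out a well, namely untreated replicates 1 and 4 and IFN-γ replicates 3 and 4 (adjusted p up to 0.208), and with DESeq2 (adjusted p = 0.184).

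Co-treated wells of Txnrd1 held 209, 226, 236 and 251 CPM at 4 hrs and 166, 167, 198 and 182 CPM at 12 hrs. They overlapped untreated wells at each time, with log2FC of 0.17 (SE 0.085, adjusted p = 0.307) and 0.20 (SE 0.093, adjusted p = 0.204). Over the 8 group means Gclm and Txnrd1 correlated at r = 0.95, a description over points that include the difference between the time points.

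Nqo1 (ENSMUSG00000003849), the quinone reductase, was the one Nrf2-type gene called lower at 12 hrs with either factor alone. Untreated wells held 135, 137, 131.0 and 111 CPM, Activin-A wells 106, 90.9, 82.8 and 109 CPM, IFN-γ wells 104, 97.2, 91.8 and 99.8 CPM, and co-treated wells 107, 99.2, 149 and 111 CPM. The wells with a single factor lay below all untreated wells, and co-treated wells overlapped every other group. The log2FC was -0.42 (SE 0.11, adjusted p = 0.0113) with Activin-A, -0.40 (SE 0.11, adjusted p = 0.00596) with IFN-γ and -0.15 (SE 0.11, adjusted p = 0.489) with both, the last at -0.29 (adjusted p = 0.107) without co-treated replicate 3 and -0.079 (adjusted p = 0.808) without co-treated replicate 2.

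The call for Activin-A was lost in 4 of 8 fits without 1 well, namely untreated replicates 1 and 2 and Activin-A replicates 2 and 3 (adjusted p up to 0.0938). That call was also lost with DESeq2 (adjusted p = 0.125) and when both time points were fitted together (edgeR adjusted p = 0.219). The call for IFN-γ held in all 8 such fits and was lost with DESeq2 (adjusted p = 0.0514) and when both time points were fitted together (adjusted p = 0.128). The interaction, the change that Activin-A made in IFN-γ-treated cells less the change it made in the absence of IFN-γ, was 0.67 (SE 0.16) for Nqo1 at 12 hrs with an adjusted p of 0.0652. It passed without untreated replicate 4 (adjusted p = 0.0434) or co-treated replicate 2 (adjusted p = 0.0256), and stood at 0.52 with an adjusted p of 0.332 without co-treated replicate 3, the well at 149 CPM.

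At 4 hrs Nqo1 was spread widely within groups. Untreated wells held 146, 188, 168 and 136 CPM and Activin-A wells 87.8, 169.9, 195 and 246 CPM, of which the lowest was replicate 1, the well that stood apart. IFN-γ wells ranged from 126 to 203 CPM and co-treated wells from 127 to 200.3 CPM, so that all 4 groups overlapped. The log2FC were 0.11 (SE 0.16), 0.13 (SE 0.16) and -0.04 (SE 0.16). The value for Activin-A was 0.38 (adjusted p = 0.0749) without its replicate 1 and -0.13 (adjusted p = 0.815) without its replicate 4, the well at 246 CPM. The effect of Activin-A on Nqo1 at 12 hrs minus that at 4 hrs was -0.51 (SE 0.21, adjusted p = 0.747), and -0.80 with an adjusted p of 0.0192 without Activin-A replicate 1 at 4 hrs and -0.28 with an adjusted p of 0.916 without its replicate 4.

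Srxn1 (ENSMUSG00000032802) and Hmox1 (ENSMUSG00000005413) passed no test of treatment. Srxn1 averaged 78.2, 71.4, 71.9 and 63.4 CPM in untreated, Activin-A, IFN-γ and co-treated cells at 4 hrs and 54.7, 48.3, 56.0 and 50.4 CPM at 12 hrs. At 4 hrs the co-treated wells, at 67.5, 67.5, 62.9 and 55.9 CPM, lay below the untreated wells, at 71.2, 80.8, 79.0 and 81.9 CPM, with a log2FC of -0.29 (SE 0.13, adjusted p = 0.194). Hmox1 ranged from 2.94 to 19.8 CPM over all wells, from 2 to 30 counts. Its log2FC with both factors at 12 hrs was -0.28 with a 95% interval from -0.90 to 0.34.

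**Figure D2:**
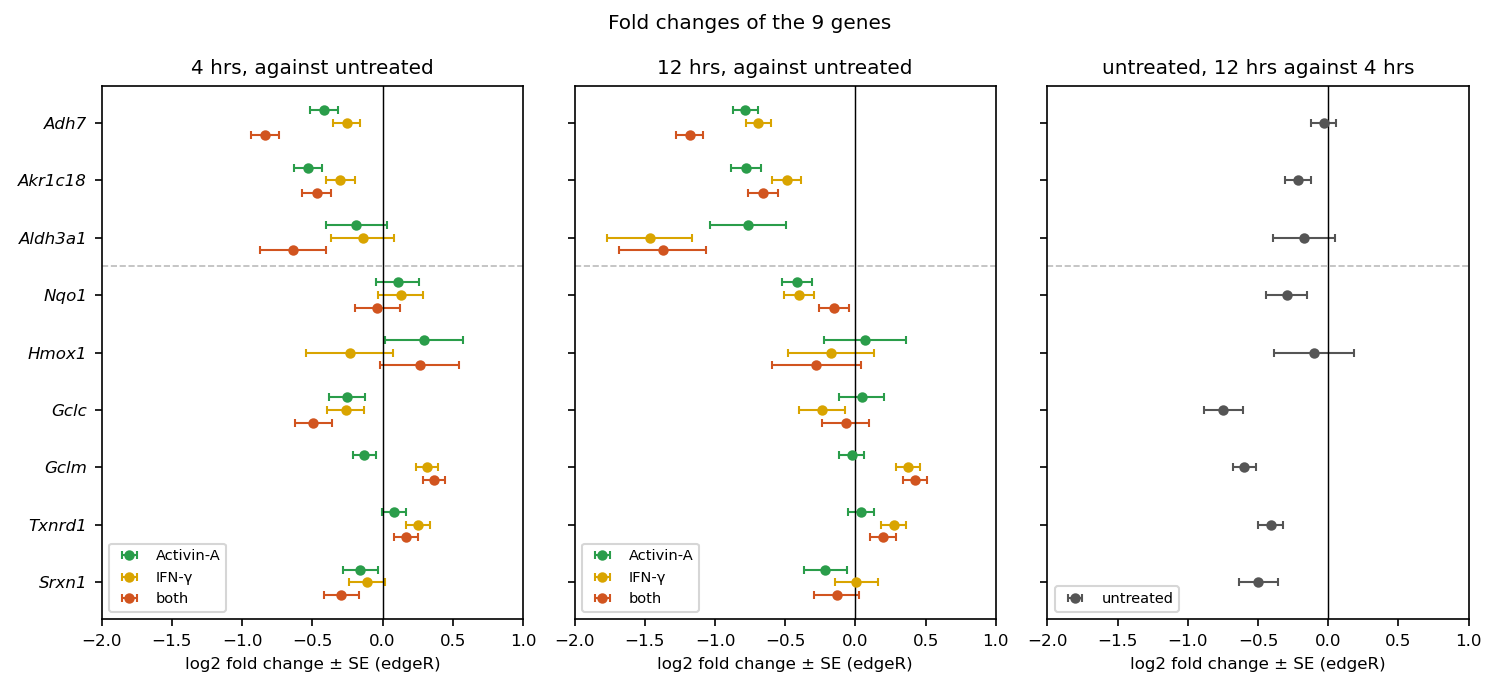
Log2 fold change with its standard error (x axis, edgeR) of each of the 9 genes (y axis), for the 3 treatments against untreated cells at 4 hrs (left) and 12 hrs (middle) and for untreated cells at 12 hrs against 4 hrs (right). The falling enzymes stand above the dashed line, all at or left of -0.49 at 12 hrs, and below it Gclm stands right of 0 for IFN-γ alone and for co-treatment.

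Co-treatment was also set against IFN-γ alone, the comparison that asks what Activin-A adds in cells that receive IFN-γ. In that comparison 0 of the 6 Nrf2-type genes passed edgeR's test at 4 hrs (0.81% of all genes did; 0 members at an unadjusted p under 0.05, 0 by DESeq2) and 0 at 12 hrs (1.03% of all genes; 1 member, Nqo1, at an unadjusted p under 0.05, 0 by DESeq2). The interaction passed for 0 of 6 at 4 hrs (0% of all genes; 0 members unadjusted, 0 by DESeq2) and for 0 at 12 hrs (0.0111% of all genes; 1 member, Nqo1, unadjusted, 0 by DESeq2). Differences between the effects at 12 and 4 hrs also passed for 0 of 6 with Activin-A, IFN-γ and both (0.0214%, 0.579% and 0.9% of all genes), with 1 member each at an unadjusted p under 0.05 and 0 by DESeq2.

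The Nrf2-type genes also differed between the untreated cells of each time. In these cells 4 of 6 were lower at 12 hrs than at 4 hrs and 0 were higher, against 2.57% and 2.33% of all genes (4.9% in either direction). The mean of Gclc was 75.8 ± 4.40 CPM at 4 hrs and 45.4 ± 9.71 CPM at 12 hrs, a log2FC of -0.75 (SE 0.14, adjusted p = 9.63e-05). Gclm averaged 238 ± 8.31 and 156 ± 11.6 CPM, a log2FC of -0.60 (SE 0.084, adjusted p = 1.07e-07). For Txnrd1 the means were 206 ± 17.9 and 155 ± 15.8 CPM, with a log2FC of -0.41 (SE 0.090, adjusted p = 0.00135).

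All 4 wells at 12 hrs were below all 4 wells at 4 hrs for these 3 genes and for Srxn1, whose wells held 64.9, 45.7, 68.3 and 39.8 CPM at 12 hrs (log2FC -0.50, SE 0.14, adjusted p = 0.0166). The call for Srxn1 was lost without untreated replicate 4 at 4 hrs or replicates 2 or 4 at 12 hrs (adjusted p up to 0.109). Nqo1 changed by -0.30 (SE 0.15, adjusted p = 0.271) and Hmox1 by -0.10 (SE 0.29, adjusted p = 0.900). Adh7 changed by -0.03 over the same interval. Time after treatment, time in culture and medium cannot be told apart in this contrast.

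Nrf2's own regulators were described from a list of 10 genes, all 10 tested. At 4 hrs 0, 1 and 3 of them passed with Activin-A, IFN-γ and both (1.64%, 5.06% and 7.29% of all genes). At 12 hrs 1, 1 and 2 passed in the same order (2.41%, 9.25% and 9.84% of all genes). Nfe2l2 at 12 hrs stood at 288, 252, 325 and 283 CPM in untreated wells, 213, 229, 246 and 224 CPM with Activin-A, 307, 291, 333 and 332 CPM with IFN-γ, and 289, 291, 231 and 269 CPM with both. Activin-A wells lay below all untreated wells, and the other groups overlapped them. Nfe2l2 fell by 0.33 on the log2 scale with Activin-A (SE 0.078, adjusted p = 0.00365), a call lost without untreated replicate 3 or Activin-A replicate 1 (adjusted p up to 0.0639), and differed by -0.08 (SE 0.077, adjusted p = 0.627) with both factors.

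At 4 hrs Nfe2l2 held 328, 314, 303 and 319 CPM in untreated wells, 275, 277, 273 and 264 CPM with Activin-A, and 280.4, 273, 238 and 254 CPM with both factors. All wells with Activin-A were below all untreated wells, yet only co-treatment passed, with -0.27 (SE 0.075, adjusted p = 0.0143), against -0.21 (SE 0.075, adjusted p = 0.165) for Activin-A. That call was lost without untreated replicate 1 or co-treated replicates 3 or 4 (adjusted p up to 0.0938). Keap1 averaged between 59.2 and 85.9 CPM and Bach1 between 13.2 and 21.3 CPM over the 8 groups, and neither passed in any comparison. Keap1 wells lay above all untreated wells with both factors at 4 hrs, with a log2FC of 0.23 (SE 0.12, adjusted p = 0.335). They also did at 12 hrs with IFN-γ (0.31, SE 0.13, adjusted p = 0.133) and with both (0.23, SE 0.13, adjusted p = 0.351). In the other treatments they overlapped untreated wells, as those of Bach1 did in every treatment.

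Mafk, a small Maf partner of Nrf2 and of Bach1, rose at 12 hrs with IFN-γ alone and with both factors. At 12 hrs untreated wells held 29.4, 19.7, 24.2 and 30.4 CPM, IFN-γ wells 57.0, 37.6, 43.2 and 41.6 CPM, and co-treated wells 49.7, 39.4, 43.1 and 45.4 CPM. The treated wells lay above all untreated ones, with log2FC of 0.77 (SE 0.18, adjusted p = 0.00131) and 0.77 (SE 0.19, adjusted p = 0.00163). At 4 hrs Mafk wells with IFN-γ alone overlapped untreated wells, with a log2FC of 0.26 (SE 0.20, adjusted p = 0.668), and co-treatment gave 0.74 (SE 0.19, adjusted p = 0.00440), a call lost without untreated replicate 2 (adjusted p = 0.0516). Sqstm1, whose product p62 binds Keap1, fell with both factors by 0.30 at 4 hrs (SE 0.064, adjusted p = 4.75e-04) and by 0.30 at 12 hrs (SE 0.062, adjusted p = 1.15e-04). With IFN-γ alone at 4 hrs its log2FC was -0.24 (SE 0.064, adjusted p = 0.0120), a call that did not hold in every fit that left out a well.

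**Figure D3:**
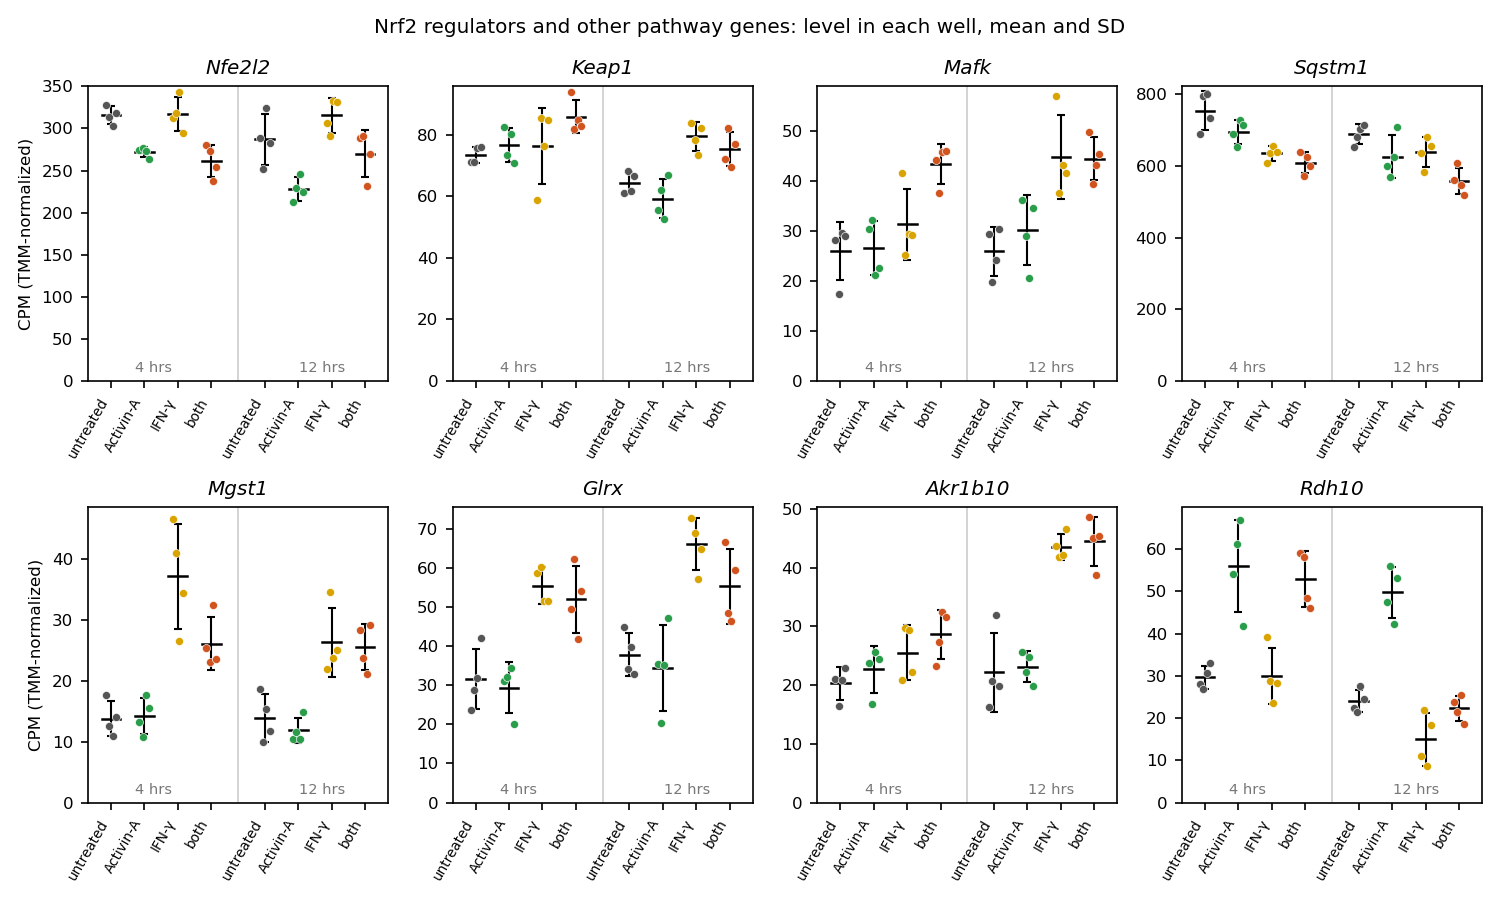
TMM-normalized CPM (y axis, from 0) of 4 Nrf2 regulators (upper row) and 4 other pathway genes (lower row) in each well of the 8 groups, with the mean and SD (n = 4). Nfe2l2 is lowest with Activin-A at 12 hrs (228 CPM), Akr1b10 stands highest in the groups with IFN-γ at 12 hrs, and Rdh10 stands highest with Activin-A at 4 hrs (56.0 CPM).

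The wider pathways were covered by 11 lists, the regulators included, with 149 genes apart from the 9 members, of which 125 were in the table. With both factors at 12 hrs, 8 of the 95 tested were higher and 13 lower, or 22.1% against 9.84% of all genes. DESeq2 called 10 list genes in that comparison and 579 of all genes, where edgeR called 883 of all genes. With IFN-γ at 12 hrs 7 were higher and 5 lower (12.6% against 9.25%), and with Activin-A 1 was higher and 5 lower (6.32% against 2.41%). At 4 hrs, of 97 tested, Activin-A gave 1 higher and 0 lower (1.03% against 1.64%), IFN-γ 5 and 1 (6.19% against 5.06%), and co-treatment 6 and 5 (11.3% against 7.29%). The lists' median log2FC with both factors at 12 hrs was -0.05 where that of all genes was -0.01.

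Among genes of glutathione synthesis and use, 3 of 20 were higher and 4 lower with both factors at 12 hrs, against 6.14% and 3.7% of all genes, and DESeq2 called only 1 of these 7. That was Mgst3, a microsomal glutathione transferase, which averaged 386 ± 30.5 CPM in untreated and 265 ± 16.1 CPM in co-treated wells without overlap and fell by 0.54 on the log2 scale (SE 0.072, adjusted p = 1.98e-09). Mgst1, of the same family, held 17.6, 12.5, 11.0 and 14.0 CPM in untreated and 46.5, 41.0, 26.5 and 34.3 CPM in IFN-γ wells at 4 hrs, without overlap, and rose by 1.43 on the log2 scale (SE 0.22, adjusted p = 1.80e-06). Glrx, a glutaredoxin, rose by 0.83 at 4 hrs (SE 0.17, adjusted p = 4.84e-04) and 0.78 at 12 hrs (SE 0.16, adjusted p = 9.84e-05) with IFN-γ.

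Among 14 thioredoxins and peroxiredoxins, 2 were higher and 1 lower with both factors at 12 hrs, against the same 6.14% and 3.7%. Prdx5, a peroxiredoxin, held 288, 277, 321 and 314 CPM in untreated wells and 438, 367, 409 and 466 CPM in co-treated wells, a log2FC of 0.49 (SE 0.073, adjusted p = 6.02e-08), and 0.33 with IFN-γ alone (SE 0.073, adjusted p = 4.98e-04). Txn1, thioredoxin, rose by 0.24 with both (SE 0.050, adjusted p = 1.24e-04). The treated wells of Prdx5 lay above all untreated ones. The lower gene was Prdx1, another peroxiredoxin, with a log2FC of -0.17 with both (SE 0.048, adjusted p = 0.00897). With Activin-A alone at 12 hrs Prdx1 gave -0.19 (SE 0.047, adjusted p = 0.00871). Prdx3 gave -0.44 with IFN-γ alone at 12 hrs (SE 0.11, adjusted p = 0.00346). In these comparisons the treated wells of Prdx1 and Prdx3 lay below all untreated ones.

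In NADPH supply 0 of 8 genes were higher and 3 lower with both factors at 12 hrs (6.14% and 3.7% of all genes), and DESeq2 called 1 of the 3, Tkt, the transketolase of the pentose phosphate pathway, with -0.33 (SE 0.086, adjusted p = 0.00428). In haem and iron handling 0 of 7 were higher and 1 lower in that comparison. Fth1, the heavy chain of ferritin and a known Nrf2 target, held 3563, 3451, 3474 and 3537 CPM in untreated wells at 12 hrs, 2985, 2755, 2931 and 3252 CPM with Activin-A, and 2859.8, 2949, 2988 and 2998 CPM with both. It fell by 0.24 (SE 0.045, adjusted p = 1.01e-04) and by 0.25 (SE 0.045, adjusted p = 6.88e-06), with no treated well reaching an untreated one. How reads shared with ferritin pseudogenes were counted was not given in the sources used here.

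Relatives of the falling enzymes were taken from the same lists. The only other alcohol dehydrogenase tested passed in none of the comparisons with untreated cells. Of 10 aldehyde dehydrogenases tested at 12 hrs 0 passed for Activin-A and 0 for IFN-γ (2.41% and 9.25% of all genes did). For co-treatment 1 passed, which was lower (3.7% of all genes were). Of 9 tested at 4 hrs 0 passed for Activin-A and 0 for IFN-γ (1.64% and 5.06% of all genes). Again 1 passed for co-treatment and was lower (2.21% of all genes). These were Aldh9a1 at 12 hrs, with a log2FC of -0.52 (SE 0.15, adjusted p = 0.00920), and Aldh1a3 at 4 hrs, with -0.62 (SE 0.18, adjusted p = 0.0193). The call of Aldh9a1 was lost without untreated replicate 1 or co-treated replicate 2 (adjusted p up to 0.123), and that of Aldh1a3 without untreated replicates 2 or 3 or co-treated replicates 2 or 3 (adjusted p up to 0.150). DESeq2 called neither (adjusted p = 0.0722 and 0.0980).

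The median log2FC of the aldehyde dehydrogenases was -0.24 with IFN-γ at 12 hrs, where 2 of 10 lay above 0, and -0.28 with both factors at 4 hrs, where 1 of 9 did, beside medians of all genes of -0.01. It was -0.12 with Activin-A and -0.10 with both at 12 hrs, and -0.16 with Activin-A and 0.040 with IFN-γ at 4 hrs, where 5 of 9 lay above 0 with IFN-γ. Of 6 other aldo-keto reductases 1 was higher at 12 hrs under IFN-γ as well as under co-treatment (6.43% and 6.14% of all genes) and 0 were lower.

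That gene, Akr1b10, held 16.2, 20.6, 31.9 and 19.9 CPM in untreated wells at 12 hrs, 43.7, 41.8, 42.1 and 46.6 CPM with IFN-γ, and 48.6, 45.1, 38.7 and 45.4 CPM with both. All treated wells lay above all untreated ones, and the log2FC was 1.01 (SE 0.19, adjusted p = 1.83e-05) and 1.03 (SE 0.19, adjusted p = 1.63e-05), opposite in sign to Akr1c18 in the same wells. Akr1b10 and Akr1c18 have close relatives in the mouse genome, and the sources used here do not state how reads matching several relatives were counted.

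Retinoid handling, the pathway of Adh7's substrate retinol, held 9 tested genes at 4 hrs, of which 1 was higher under Activin-A, 2 under IFN-γ and 3 under co-treatment, and 0 were lower, where 1.64%, 5.06% and 7.29% of all genes passed in either direction. Of these, Crabp2, a cellular retinoic acid binding protein, was not called by DESeq2 with IFN-γ (adjusted p = 0.183) or both factors (adjusted p = 0.131), and with IFN-γ its wells overlapped and the call was lost without untreated replicates 1 or 4 or IFN-γ replicates 2 or 3 (adjusted p up to 0.207). With both factors it was lost without untreated replicates 1 or 4 or co-treated replicates 1 or 2 (adjusted p up to 0.124). Of 7 tested at 12 hrs, Activin-A gave 1 higher and 1 lower, IFN-γ 0, and co-treatment 0 higher and 1 lower (2.41%, 9.25% and 9.84% of all genes). Rdh10, a retinol dehydrogenase that oxidizes retinol as Adh7 does, held 28.1, 26.9, 30.7 and 33.0 CPM in untreated and 54.1, 61.2, 67.0 and 41.7 CPM in Activin-A wells at 4 hrs, and rose by 0.91 (SE 0.17, adjusted p = 3.75e-04), where Adh7 changed by -0.42. At 12 hrs Rdh10 rose by 1.06 with Activin-A (SE 0.18, adjusted p = 2.06e-05), with 47.4, 56.1, 42.4 and 53.3 CPM against 22.4, 21.5, 27.5 and 24.6 CPM. The Activin-A wells lay above all untreated wells at each time, whereas with both factors Rdh10 rose by 0.84 at 4 hrs (SE 0.17, adjusted p = 2.52e-04) and differed by -0.09 at 12 hrs (SE 0.23, adjusted p = 0.896). Of the pair that was lower at 12 hrs, Crabp1, of the same family as Crabp2, fell by 0.29 with both factors (SE 0.044, adjusted p = 1.17e-07). Rarg, a retinoic acid receptor, gave -0.36 with Activin-A (SE 0.096, adjusted p = 0.0183), a call lost without untreated replicates 1 or 2 or Activin-A replicates 1, 2 or 3 (adjusted p up to 0.172) and with DESeq2 (adjusted p = 0.189). Cyp26b1, which degrades retinoic acid, gave a log2FC at 4 hrs of 1.95 with IFN-γ (SE 0.34) and 1.95 with both factors (SE 0.33). Untreated wells held 4.40, 9.62, 4.39 and 4.00 CPM and IFN-γ wells 20.8, 20.1, 17.6 and 27.4 CPM. With 4 to 10 counts in untreated and 12 to 32 in IFN-γ wells, it passed the low-count filter through the wells where it was high. It is therefore given without a p-value, although the counts of this list include it. At 12 hrs its group means lay between 5.04 and 7.65 CPM.

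**Figure D4:**
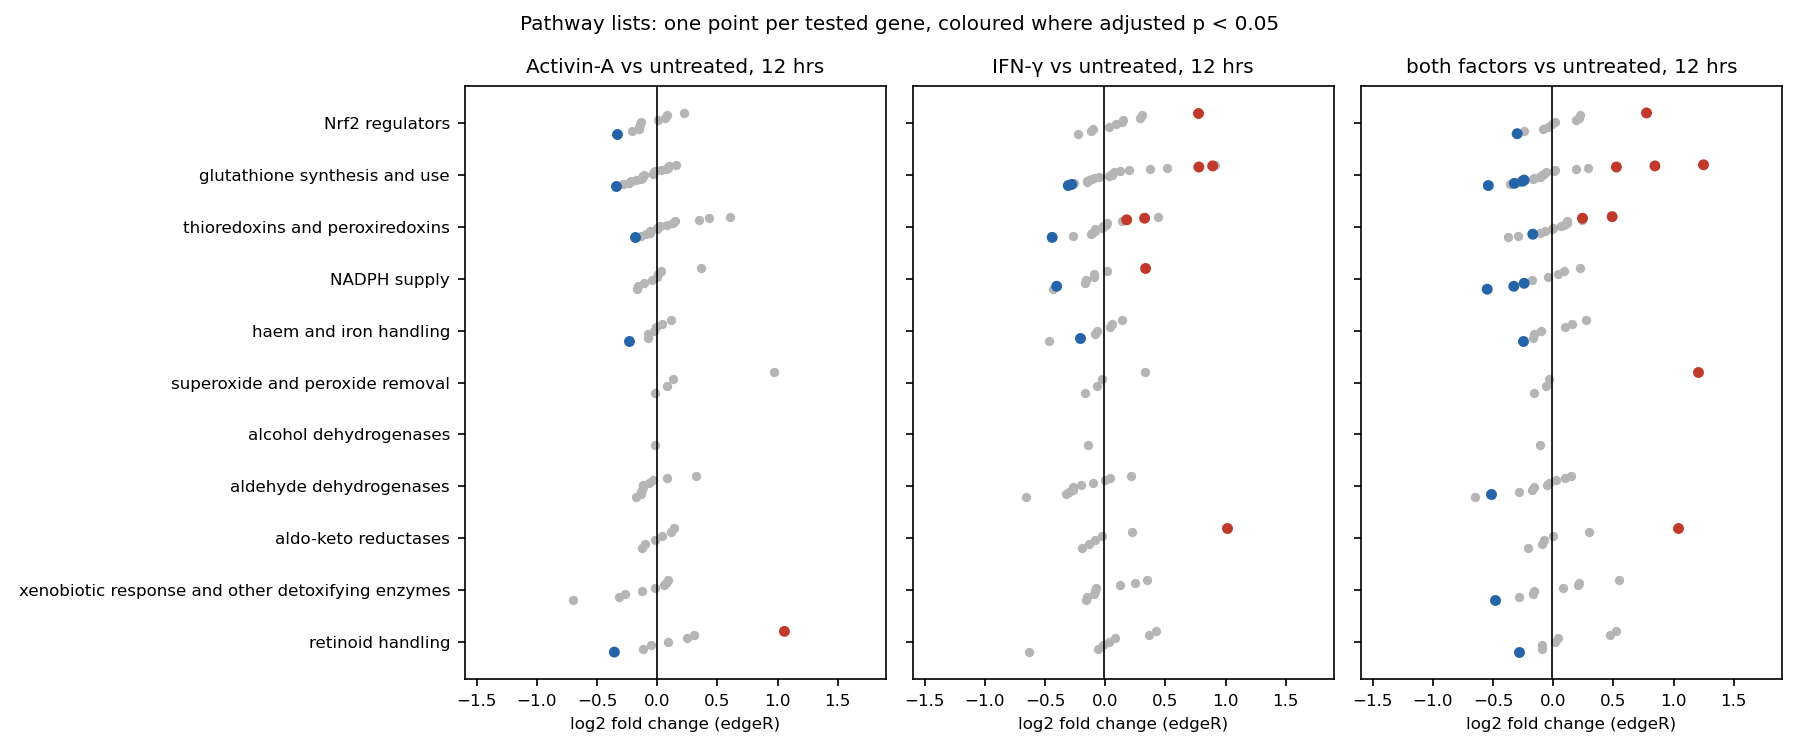
Log2 fold change (x axis, edgeR) of every tested gene of the 11 lists (y axis) for Activin-A, IFN-γ and co-treatment against untreated cells at 12 hrs, red where higher and blue where lower at an adjusted p under 0.05, grey otherwise, with the median of all genes as a vertical line. With both factors 8 of 95 genes are red and 13 blue, spread over the lists on each side of the line.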

How the data were processed

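The authors deposited raw counts per gene for 32 BRB-seq libraries; per the labels, reads were aligned with STAR 2.7.10b to GRCm39 and counted with featureCounts, and the collapse of molecular identifiers and the counting of reads shared between genes were not given in the sources used here. Symbols for 12437 of 12451 Ensembl identifiers came from GENCODE M21, whose build, GRCm38, is not that of the table, so that coordinates are given only for RefSeq's GRCm38.p6 promoter windows. Genes were filtered with filterByExpr, normalized by TMM and tested with edgeR 4.0.16 (quasi-likelihood, two-sided) in R 4.3.3, fitting the 16 samples of each time together, or all 32 for contrasts across times, with Benjamini-Hochberg adjustment over all genes tested and a threshold of 0.05. Log2 fold changes came from the same fit. Standard errors were the absolute log2 fold change divided by the square root of edgeR's F statistic, with normal 95% intervals. Alternatives were DESeq2 1.42.0, RLE scaling, no filter, a replicate block, all 32 samples in one fit and leaving out each well. The members and lists were chosen with earlier results of these data known. The 9 members were named throughout. From each list only some of the genes that passed were named, chosen in part by size of change, with Nfe2l2, Keap1 and Bach1 always given. The 3 genes most alike each falling enzyme were those with the highest r of group means among genes with a mean count of at least 10, of which 1 is not reported here. Scripts were tested on simulated data. Intervals and floors cover counting error only or, for fitted values, the spread between wells.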

Additional observations from a re-analysis of the deposited data

Results flagged for a closer look

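In 7 of 72 groups of 4 wells, 1 well lay far from the other 3 by Dixon's criterion, where chance gives about 1 in 20. Adh7 stood at 231 CPM in replicate 2 of IFN-γ at 4 hrs, above the other 3 wells at 163 to 174 CPM, and Aldh3a1 stood at 27.9 CPM in the same well, above 18.9 to 19.6 CPM. Akr1c18 stood at 90.0 CPM in replicate 3 of Activin-A at 12 hrs, above 78.7 to 80.5 CPM, and at 68.9 CPM in replicate 1 of co-treatment at 12 hrs, below 95.6 to 97.4 CPM. Aldh3a1 stood at 17.8 CPM in replicate 1 of Activin-A at 4 hrs, below 22.7 to 23.0 CPM, in the library that stood apart from its group over all genes. Hmox1 stood at 14.4 CPM in replicate 4 of co-treatment at 4 hrs, below 16.9 to 17.1 CPM. Gclm stood at 239 CPM in replicate 3 of co-treatment at 12 hrs, above 200.4 to 204 CPM.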

How the results depend on the processing

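The log2FC of the falling enzymes with either factor or both against untreated cells stayed negative in every alternative run, and the 4 calls of Gclm held throughout. DESeq2 called fewer genes: 85 against 150 with Activin-A, and 45 against 74 for co-treatment against IFN-γ, at 4 hrs, and 124 against 216 with Activin-A, 579 against 883 with both, 54 against 92 for co-treatment against IFN-γ and 0 against 1 for the interaction at 12 hrs. It called 284 against 457 for untreated cells over time, 1 against 2 for the change in the Activin-A effect over time, and 0 against 1 list gene for that of both factors. Of the Nrf2-type genes it called 1 against 2 with both factors at 4 hrs, 0 against 1 with Activin-A at 12 hrs and 1 against 3 with IFN-γ at 12 hrs, and of the list genes 10 against 21 with both at 12 hrs. Without a filter the interaction called 1 gene at 4 hrs and 8 at 12 hrs, among them 1 Nrf2-type gene, Nqo1. One fit over all 32 samples called 1 gene for the interaction at 4 hrs and 0 Nrf2-type genes with Activin-A at 12 hrs.

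When each well was left out in turn, the Nrf2-type genes called ranged from 1 to 2 with IFN-γ and from 1 to 2 with both at 4 hrs, from 0 to 1 with Activin-A, from 2 to 3 with IFN-γ and from 0 to 1 for the interaction at 12 hrs, from 0 to 1 for the change in the Activin-A effect, and from 3 to 4 for untreated cells over time. List genes ranged from 4 to 6 with IFN-γ at 4 hrs, from 1 to 2 and from 1 to 3 for co-treatment against IFN-γ at 4 and 12 hrs, from 3 to 6 with Activin-A and from 14 to 20 with both at 12 hrs, from 0 to 1 and from 0 to 2 for the change in the effects of IFN-γ and of both, and from 5 to 7 for untreated cells. All genes called ranged from 110 to 163 with Activin-A, from 47 to 72 for co-treatment against IFN-γ and from 0 to 1 for the interaction at 4 hrs. They ranged from 62 to 91 for co-treatment against IFN-γ and from 0 to 6 for the interaction at 12 hrs, from 0 to 3, 35 to 54 and 56 to 77 for the changes over time in the effects of Activin-A, IFN-γ and both, and from 302 to 374 for untreated cells. List genes given with values as risen or fallen kept their calls in each fit of the comparison they were given for, with the following exceptions. Nfe2l2, Aldh9a1, Aldh1a3, Rarg, Crabp2, Mafk at 4 hrs and Sqstm1 with IFN-γ at 4 hrs did not, and Prdx1 and Prdx3 are not covered here. Calls of Mgst1 and Txn1 with IFN-γ at 12 hrs, of Mgst1 with both at each time and of Glrx with both at 12 hrs were lost in at least 1 fit. So was that of Fth1 for co-treatment against IFN-γ at 12 hrs. Nqo1 with Activin-A at 4 hrs ranged from -0.13 to 0.38 and so changed sign. The cause of these differences was not tested.

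Same-numbered wells did not deviate together (mean correlation of -0.00023 over 112 pairs, of which 0 were over 0.1), so that the numbers were not taken as pairs. A replicate block gave 147 and 218 genes with Activin-A at 4 and 12 hrs and 652 and 876 with both. The 144 values compared were counts of genes called, calls of single genes and untested log2FC of the falling enzymes. Of these, 143 stayed within the limits set for their kind. The exception was the call of Nqo2 with both factors at 12 hrs, which was lost. Hmox1, at 2 to 30 counts per well, and Aldh3a1, at 5 to 32, had the lowest counts of the 9 genes, which limits the precision of their values.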
